A study of Drosophila melanogaster with 4 samples.

Results

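The genes described here encode the subunits of the Drosophila proteasome. They were taken as every gene with a probe set of 1 platform symbol beginning with Prosalpha, Prosbeta, Rpn and a digit, or Rpt and a digit. This gave 40 genes, each with 1 probe set, of 11982 genes measured in this way. Of these, 26 were canonical subunits, comprising 12 of the 20S core, 7 of the 19S base and 7 of the 19S lid, and 14 were paralogs whose symbols carry a T or R suffix. The RefSeq gene table (assembly Release 6) lists 48 genes under these symbols. Prosbeta1, Rpn9, Rpn10, Rpt1, Rpt6 and Rpt6R were not analysed here, and Prosalpha1 and Prosalpha1R shared a single probe set.

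Expression was measured on 1-colour Affymetrix arrays of whole bodies of Drosophila melanogaster larvae at instar 3, kept at 25 °C. Control larvae carried C564-Gal4; UAS-GFP and experimental larvae carried C564-Gal4; UAS-Gyc76C, so that both genotypes held the same driver and a UAS transgene. Gyc76C is a transmembrane receptor guanylate cyclase, and the labels place its overexpression in the fat body, one of the many organs that contribute RNA to a whole larva. There were 2 arrays of each genotype, which the labels name biological replicas, and the number of larvae behind an array and their sex are not given in the sources used here. In such bulk RNA, fewer cells of a type and less RNA per cell cannot be told apart. As a check of the labels, the overexpressed gene was measured first: its brightest probe set, annotated to Gyc76C and CG42637 together, was at 1047 and 928.0 in GFP larvae and at 16050 and 20993 in Gyc76C larvae. The 2 dimmer probe sets of this annotation were lower on the Gyc76C arrays, one at 91.9 and 64.9 against 9.42 and 30.6 (limma adjusted p = 0.0951), the other, under the filter on dim signals, at 17.0 and 14.6 against 2.43 and 4.69.

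The proteasome degrades proteins that have been tagged with ubiquitin. Its 20S core is a barrel of stacked rings, in which outer rings of alpha subunits control entry and inner rings of beta subunits carry the proteolytic sites. The 19S regulatory particle caps the barrel: its base holds the Rpt ATPases that unfold substrates and thread them inward, and its lid holds the deubiquitinase that removes the ubiquitin chain. In the fly several subunits have second copies expressed in the male germ line, which are the T and R paralogs.

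All 26 canonical genes had lower signals on both Gyc76C arrays than on both GFP arrays, with log2 fold changes from -0.80 for Rpn6 to -0.10 for Prosbeta3. The median log2 fold change was -0.49 (Gyc76C at 71.2% of GFP), against -0.16 over all 11261 probe sets tested. By limma with Benjamini-Hochberg adjustment over all tested probe sets, 13 of the 26 fell and 0 rose, where over all tested probe sets 13.3% fell and 11.3% rose. At an unadjusted p under 0.05, 21 of the 26 were lower and 0 higher, against 23.5% and 16.2% of all tested probe sets, and 41.4% of these had both Gyc76C arrays below both GFP arrays. With a filter at the 60th percentile, which keeps the brighter probe sets, 13 of the 26 fell, against 19.3% of all probe sets. There 21 were lower at an unadjusted p under 0.05, against 27.2%. The changes were small, the median standard error of a canonical gene's log2 fold change being 0.14, against 0.21 over all tested probe sets.

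The number that fell depended on single arrays and on the variance model, whereas the median stayed below 0. Without Gyc76C replicate 1, limma called 0 of the 26 (13 at an unadjusted p under 0.05), their median being -0.52 on the log2 scale, while 5.59% of all probe sets fell. Without Gyc76C replicate 2 it called 2, a smaller share than the 10.9% of all probe sets that fell there, and without GFP replicate 1 it called 22, against 15.6%. Without a mean trend in the prior variance it also called 0 of the 26 (13 at an unadjusted p under 0.05). Over all probe sets 5.59% fell in that fit (21.2% at an unadjusted p under 0.05). With each array centred on its own median, 6 of the 26 fell, against 8.80% of all probe sets, the median was -0.33, and Prosbeta3 alone had a value above 0, at 0.06.

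Several other measures moved with the genotype beside the proteasome genes, and their part in these results was not tested. Hybridization controls were lower by 0.62 on the log2 scale in Gyc76C larvae (shift -0.62), most of all on the Gyc76C replicate 1 array, at 8.86 against 9.49 to 9.82 on the others. The ratio of 3′ to 5′ signal of the actin control was 1.18 and 1.20 in GFP larvae and 1.08 on both Gyc76C arrays. That of eIF-4a was 4.04 and 4.06 against 3.12 and 3.61, and that of GAPDH overlapped between the genotypes, at 1.82 and 2.00 against 1.64 and 1.85. The summed signal of 6 salivary glue genes fell from between 179054 and 192434 to between 18153 and 21244, with all 6 genes past the threshold. Of 7 fat body markers 4 had a probe set of their own, and Lsp1alpha, Lsp1beta and Lsp1gamma did not. The summed signal of the 4 genes was 132734 to 135658 in GFP and 88849 to 105332 in Gyc76C larvae, and 2 of them fell. These were Fbp1, with a mean of 36644 in GFP and 12670 in Gyc76C larvae, and Fbp2. The latter was at the threshold (limma adjusted p = 0.0499) and past it in 3 of 12 alternative settings. Of the others, neither past the threshold, Lsp2 had a log2 fold change of -0.37 and apolpp one of 0.41. Of 2 muscle genes with a probe set, Mlc2 rose and up did not pass, and their summed signal was 5856 to 6409 against 8880 to 10673.

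**Figure D1:**
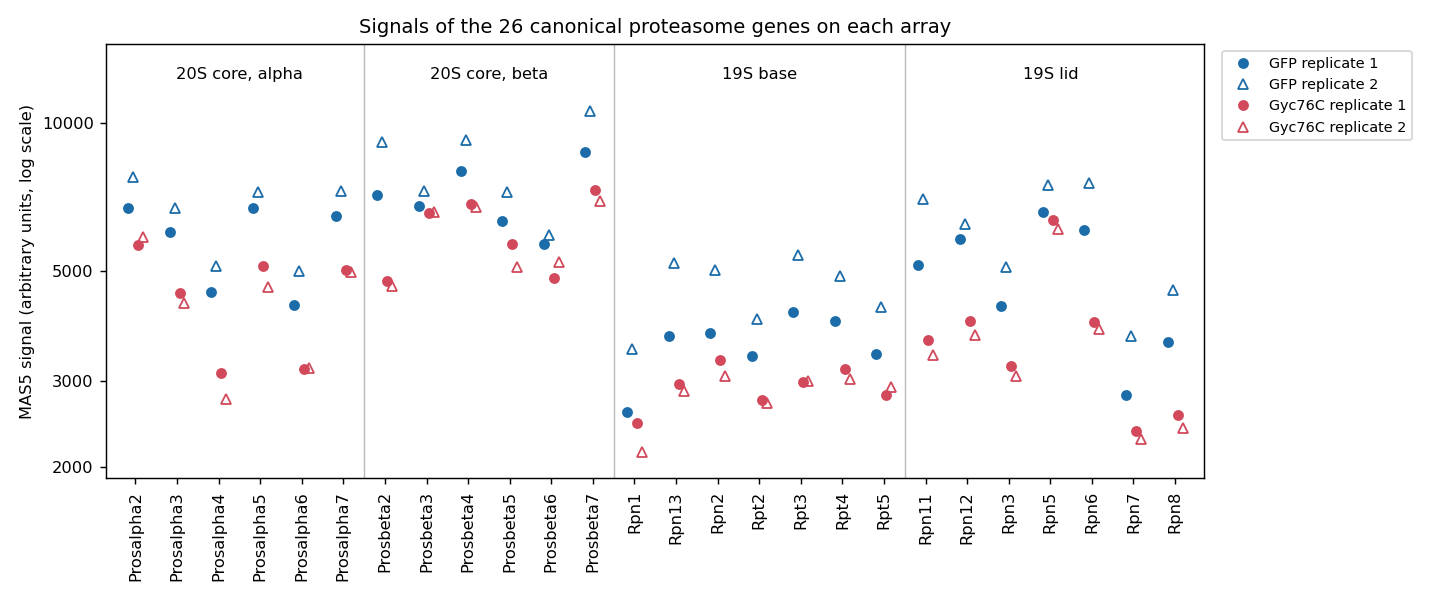
MAS5 signal (log axis) of the 26 canonical proteasome genes on each of the 4 arrays, grouped by subcomplex, with GFP arrays in blue and Gyc76C arrays in red. For every gene both red points lie below both blue points, and the GFP replicate 2 triangle lies above the GFP replicate 1 circle.

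The canonical genes also moved together between the control arrays. GFP replicate 2 was above GFP replicate 1 for all 26, by a median of 0.26 on the log2 scale, whereas over all tested probe sets GFP replicate 2 was the higher array for 49.6% and the median difference was 0.00 (-0.0037). The difference was wider for the base (median 0.38) and lid (0.32) than for the core (0.19). Gyc76C replicate 2 was below Gyc76C replicate 1 for 20 of the 26, by a median of 0.06 (replicate 2 minus replicate 1, -0.06). The median difference between genotypes was therefore -0.63 when GFP replicate 1 was left out and -0.35 when GFP replicate 2 was left out. Since the 26 genes share these arrays and moved in step between them, they are not 26 independent measurements of the genotype difference.

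**Figure D2:**
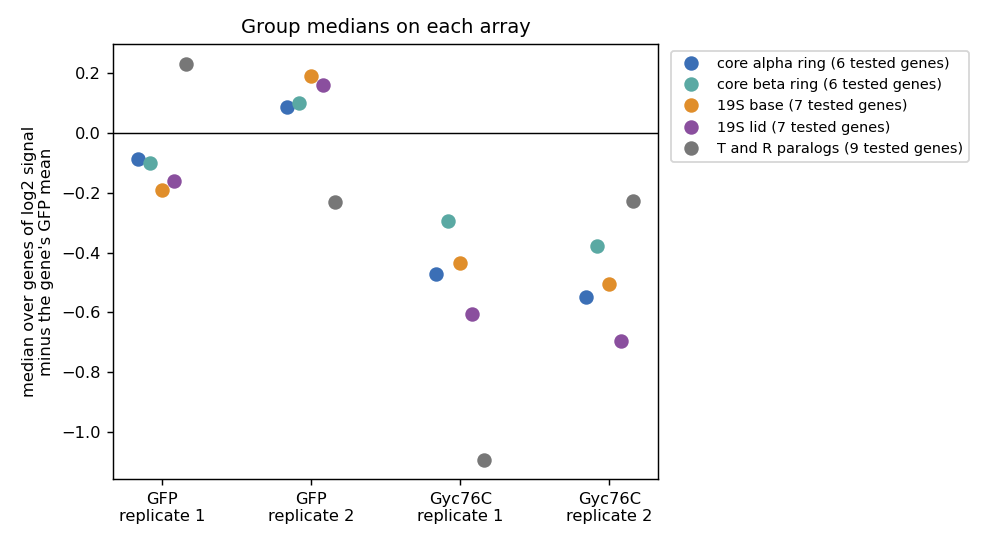
Median over the tested genes of each group of the log2 signal minus that gene's mean over the GFP arrays, for each of the 4 arrays. The lid medians are -0.61 and -0.70 on the Gyc76C arrays and the beta ring medians -0.29 and -0.38, while the T and R paralogs differ widely between the arrays of each genotype.

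Within the core, 6 of 12 genes fell (median log2 fold change -0.44), against 13.3% of all tested probe sets. In the fit reported, these calls were unevenly placed. In the alpha rings, which form the gated ends of the barrel, 5 of 6 genes fell and the median was -0.52. In the beta rings 1 of 6 fell and the median was -0.33. This split changed with the fit. With arrays centred on their medians 2 core genes fell, Prosalpha4 and Prosbeta2, against 8.80% of all probe sets. Under quantile normalization 10 core genes fell, where 10.5% of all probe sets fell. The 10 included Prosbeta2, Prosbeta4, Prosbeta5 and Prosbeta7. Without a mean trend 0 core genes fell, against 5.59%. The difference between the rings was not tested.

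Prosalpha4, an alpha ring subunit, gave signals of 4541 and 5140 in GFP larvae and of 3108 and 2755 in Gyc76C larvae. The groups lay well apart, with means of 4841 ± 423 and 2932 ± 249 (SD, n = 2 each), a 1.65-fold difference (log2 fold change -0.72, SE 0.14, limma adjusted p = 0.0128). Prosalpha6 was at 4273 and 5017 on the GFP arrays and at 3170 and 3181 on the Gyc76C arrays, where the arrays nearly coincided (log2 fold change -0.54, SE 0.14, limma adjusted p = 0.0309). Prosalpha3 and Prosalpha5 fell by 0.53 and 0.52 on the log2 scale (limma adjusted p = 0.0299 and 0.0325). Prosalpha7 fell by 0.46 and was close to the threshold (limma adjusted p = 0.0462). Prosalpha2 was the alpha ring member that did not pass, at 6738 and 7771 on the GFP arrays and 5650 and 5867 on the Gyc76C arrays, with a 95% interval of the log2 fold change from -0.65 to -0.01 (limma adjusted p = 0.12). The probe set shared by Prosalpha1 and Prosalpha1R, which cannot be assigned to either gene, had the highest of these signals, at 14411 and 15541 on the GFP arrays and 10506 and 11032 on the Gyc76C arrays (log2 fold change -0.48, SE 0.13, limma adjusted p = 0.0433). Its call, like that of Prosalpha7, was lost with centred arrays, without a filter, without a mean trend and with a replicate block.

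Among the beta subunits, Prosbeta2 bears the trypsin-like site and Prosbeta5 the chymotrypsin-like site. Prosbeta2 had signals of 7162 and 9166 on the GFP arrays and 4776 and 4675 on the Gyc76C arrays. The GFP arrays differed from each other by 0.36 on the log2 scale, and the genotypes by -0.78 (SE 0.16, limma adjusted p = 0.0153). Prosbeta2 and Rpn6 each kept the call in 10 of 12 alternative settings, more than any other member, and both lost it without a mean trend and without Gyc76C replicate 1. Prosbeta5 did not pass, at 6322 and 7238 on the GFP arrays and 5673 and 5097 on the Gyc76C arrays, with an interval of the log2 fold change from -0.66 to 0.00 (upper bound 0.0023, limma adjusted p = 0.128). Prosbeta3, a non-catalytic subunit, was nearly level, at 6796 and 7289 on the GFP arrays and at 6578 and 6601 on the Gyc76C arrays (log2 fold change -0.10, 95% interval -0.39 to 0.20, limma adjusted p = 0.606). The other non-catalytic subunits Prosbeta7, Prosbeta4 and Prosbeta6 had log2 fold changes of -0.43, -0.34 and -0.20, none past the threshold. Prosbeta2 and Prosbeta3 were the core genes with the lowest and the highest log2 fold change. On the same arrays the log2 difference of Prosbeta2 minus Prosbeta3 was 0.08 and 0.33 on the GFP arrays and -0.46 and -0.50 on the Gyc76C arrays; the pair was chosen after its values were seen and the difference was not tested.

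The base had a median log2 fold change of -0.45. Of its 7 genes 2 fell, the ATPase genes Rpt3 and Rpt4, against 13.3% of all tested probe sets. Rpt3 was at 4132 and 5393 on the GFP arrays and at 2985 and 2993 on the Gyc76C arrays (log2 fold change -0.66, SE 0.16, limma adjusted p = 0.028). Rpt4 was at 3968 and 4893 against 3170 and 3023 (log2 fold change -0.51, SE 0.15, limma adjusted p = 0.048). Both calls were lost with centred arrays and without a mean trend, and that of Rpt4 without a filter as well. For both the distance between the GFP arrays was far larger than that between the Gyc76C arrays. The ATPase genes Rpt2 and Rpt5 had -0.43 and -0.41, and neither passed the threshold (limma adjusted p = 0.0657 and 0.092).

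The remaining base genes did not pass either. Rpn13, a ubiquitin receptor, was at 3698 and 5203 in GFP larvae and at 2958 and 2863 in Gyc76C larvae. Its log2 fold change of -0.59 was among the larger ones in the base, but its GFP arrays differed by 0.49, the widest such distance among the canonical genes, and the limma adjusted p was 0.0564. The large scaffold subunits Rpn2 and Rpn1 had log2 fold changes of -0.45 and -0.38 (limma adjusted p = 0.0998 and 0.155). Without GFP replicate 1 all 7 base genes fell, and with arrays centred on their medians limma called 0 (3 at an unadjusted p under 0.05).

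The lid had the lowest median log2 fold change of the canonical groups, -0.65. Of its 7 genes 5 fell, against 13.3% of all tested probe sets. Rpn6, which in yeast clamps the lid to the core, was at 6064 and 7565 in GFP larvae and at 3951 and 3824 in Gyc76C larvae. Its signal in Gyc76C larvae was thus 57.4% of that in GFP larvae (log2 fold change -0.80, SE 0.15, limma adjusted p = 0.0119). Rpn11 is the deubiquitinase of the lid and Rpn8 its catalytically inactive partner. Rpn11 was at 5142 and 7007 against 3626 and 3373 (log2 fold change -0.78, SE 0.17, limma adjusted p = 0.0216). Rpn8 was at 3586 and 4573 against 2551 and 2405 (log2 fold change -0.71, SE 0.16, limma adjusted p = 0.0203). These partners differed by less than their standard errors.

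Rpn12, a scaffold subunit of the lid, had close arrays in both genotypes, at 5817 and 6256 on the GFP arrays and 3961 and 3720 on the Gyc76C arrays (log2 fold change -0.65, SE 0.13, limma adjusted p = 0.0135). Rpn3, another scaffold subunit, fell by 0.57 on the log2 scale (limma adjusted p = 0.0302). Rpn7 had a log2 fold change of -0.47 and did not pass (95% interval -0.86 to -0.08, limma adjusted p = 0.0812). Rpn5 stood apart from the other lid genes, at 6614 and 7486 on the GFP arrays and 6356 and 6098 on the Gyc76C arrays (log2 fold change -0.18, 95% interval -0.49 to 0.14, limma adjusted p = 0.36). Set against it on the same arrays, a pair likewise chosen after its values were seen, the log2 difference of Rpn6 minus Rpn5 was -0.13 and 0.02 on the GFP arrays and -0.69 and -0.67 on the Gyc76C arrays. With 2 arrays in each genotype an exact permutation test of such a ratio cannot give a two-sided p below 0.333.

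**Figure D3:**
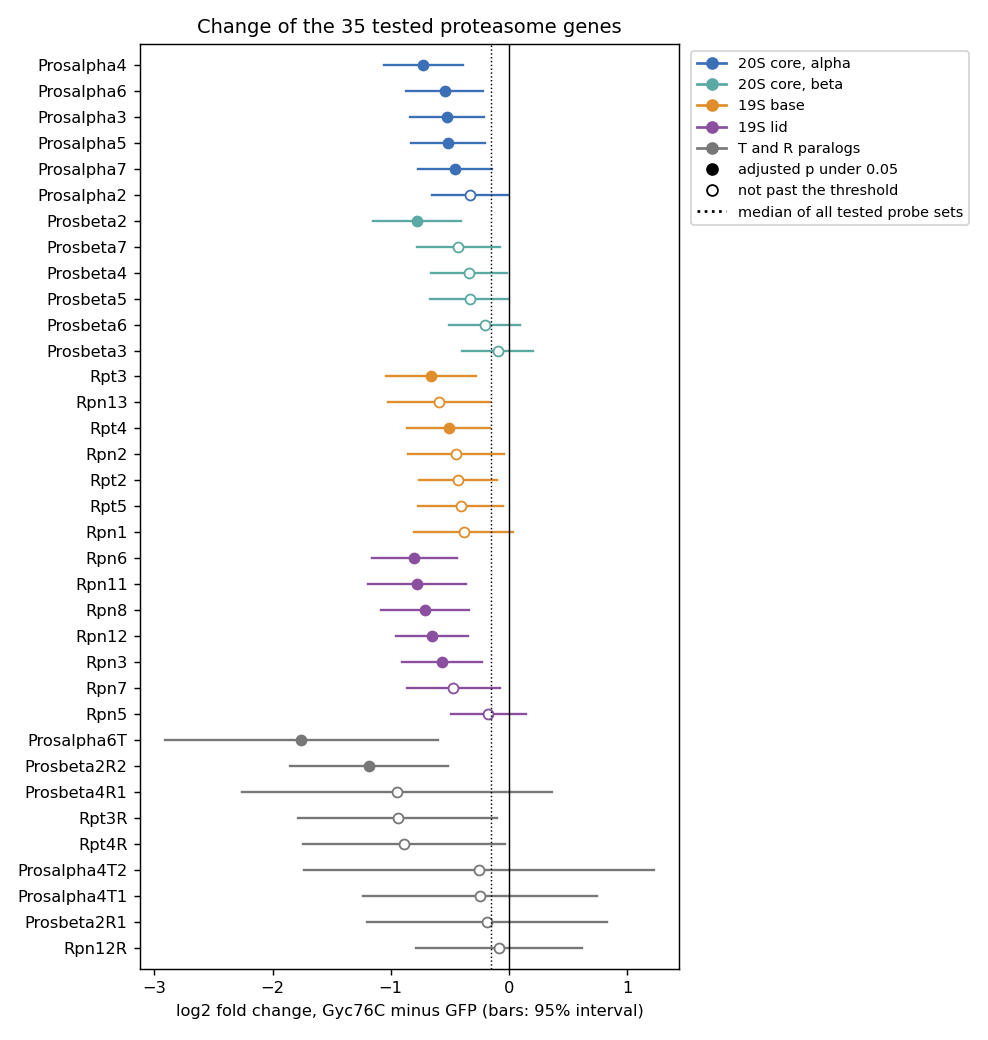
Log2 fold change (Gyc76C minus GFP) with its unadjusted 95% interval for the 35 tested proteasome genes, ordered within each group; filled points passed an adjusted p of 0.05 and the dotted line is the median of all tested probe sets, -0.16. The 13 filled canonical points run from -0.80 to -0.46, and the intervals of the T and R paralogs are much wider.

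Core and regulatory particle did not separate by their counts. Of their members, 6 of 12 core genes and 7 of 14 base and lid genes fell, against 13.3% of all tested probe sets. The medians were -0.44 and -0.54 on the log2 scale. With arrays centred on their medians the group medians were -0.29 for the core, -0.29 for the base and -0.49 for the lid. Under quantile normalization they were -0.56, -0.54 and -0.75. There 10 core genes and 4 base genes fell, against 10.5% of all probe sets. The lid had the lowest median in each of these fits, and whether it differed from the other groups was not tested.

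The T and R paralogs were dim. Of the 14, 9 passed the filter, which required a mean signal of at least 46.3 over the 4 arrays, and their signals ran from 28.0 to 299.3. MAS5 reports a positive signal even where nothing is detected, so values near or under 46.3 have no reliable order. Of the 9 tested, 2 fell (Prosalpha6T and Prosbeta2R2), 7 did not pass and 0 rose, against the 13.3% of all tested probe sets that fell. At an unadjusted p under 0.05, 4 were lower and 0 higher, against 23.5% and 16.2% of all tested probe sets. Both counts, and the 15 proteasome genes that fell in all, include Prosalpha6T, which passed the filter only through its GFP signals. Its call is therefore no support for a lower paralog signal.

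Prosalpha6T, the paralog of an alpha ring gene, was at 131.3 and 81.8 in GFP larvae and at 28.9 and 32.6 in Gyc76C larvae. Both Gyc76C values lay under 46.3, so Prosalpha6T passed the filter only through its GFP signals (mean 106.6 in GFP and 30.8 in Gyc76C larvae). With the Gyc76C signals set to that level the difference was 2.24-fold. The level is a filter and not a detection limit, so this fold is not a lower bound. The log2 fold change as measured was -1.76 (SE 0.48, interval -2.91 to -0.60, limma adjusted p = 0.042). Prosbeta2R2, a paralog of the trypsin-like subunit gene, was at 274.2 and 181.9 against 99.7 and 96.9, a 2.27-fold difference (SE of the log2 fold change 0.28, limma adjusted p = 0.0257). The groups did not overlap for either gene. Prosalpha6T kept its call in 4 of 11 alternative settings, losing it among others with centred arrays, without a filter and with a replicate block. Prosbeta2R2 kept its call in 6 of 11 and lost it, among others, without a mean trend. Neither call held without GFP replicate 1, without Gyc76C replicate 1 or under quantile normalization. Under the last, 0 paralogs were called (2 at an unadjusted p under 0.05), against 10.5% and 18.1% of all probe sets that were lower.

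The ATPase paralogs Rpt3R and Rpt4R were lower on both Gyc76C arrays but did not pass. Rpt3R was at 299.3 and 217.0 on the GFP arrays and at 96.0 and 183.8 on the Gyc76C arrays (log2 fold change -0.94, SE 0.35, limma adjusted p = 0.0967). Rpt4R had -0.89 (limma adjusted p = 0.113), and Prosbeta4R1 had -0.95 with an interval from -2.26 to 0.36. Prosalpha4T1, Prosalpha4T2, Prosbeta2R1 and Rpn12R overlapped between the genotypes, with log2 fold changes from -0.25 to -0.08 and intervals that reached from -1.74 to 1.23. The sign of each of these last 4 turned in at least 1 alternative setting.

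The other 5 paralogs, Prosalpha3T, Prosbeta4R2, Prosbeta5R1, Prosbeta5R2 and Rpn13R, did not reach the filter and were not tested. Prosbeta5R1, a paralog of the chymotrypsin-like subunit gene, was at 53.1 and 41.0 in GFP larvae and at 8.40 and 11.6 in Gyc76C larvae. Prosbeta5R2 had signals of at most 10.9 on every array. Prosbeta4R2 was at 15.0 and 52.4 against 4.52 and 30.7, and Rpn13R at 45.8 and 7.01 against 28.2 and 46.7, so the arrays of a genotype were far apart. Prosbeta4R1 and Prosbeta4R2 lie on the same chromosome with 1 annotated gene between them in the RefSeq table, and only the first passed the filter.

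**Figure D4:**
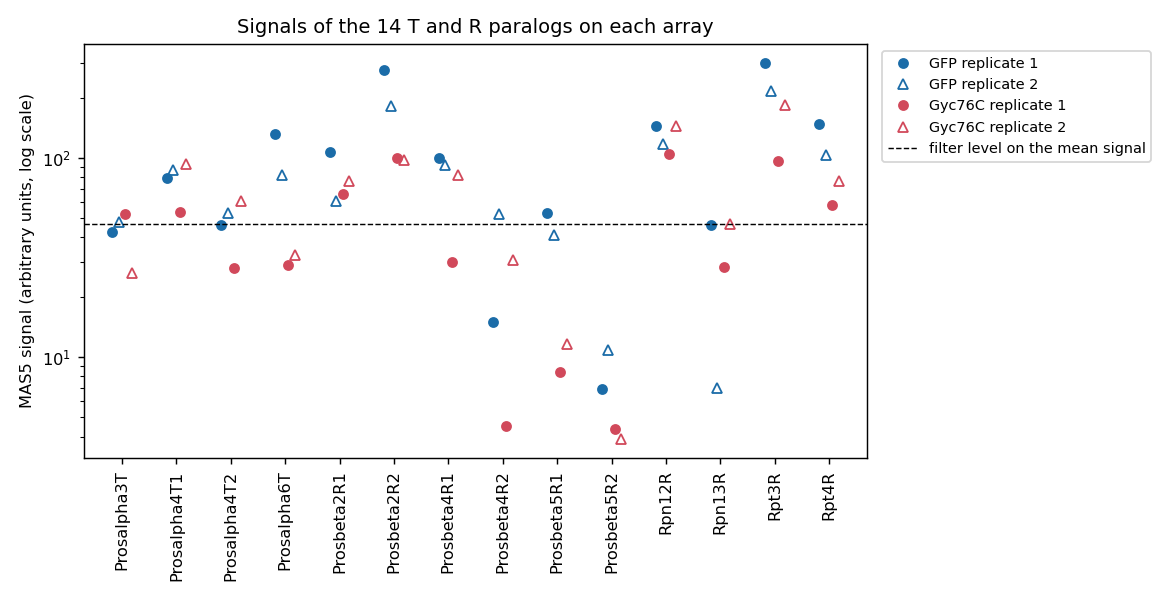
MAS5 signal (log axis) of the 14 T and R paralogs on each of the 4 arrays; the dashed line is the filter level of 46.3, which applied to the mean over the arrays. Only Prosalpha6T and Prosbeta2R2, both with each Gyc76C array below each GFP array, passed the test, and many points lie near or under the line.

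Paralogs and canonical genes differed in how their replicate arrays were ordered. For the 9 tested paralogs the median of GFP replicate 2 minus GFP replicate 1 was -0.46 and that of Gyc76C replicate 2 minus Gyc76C replicate 1 was 0.47, where the canonical medians were 0.26 and -0.06. Genes of a testis marker list had their arrays in the same order as the paralogs. The corresponding medians of its 19 tested genes were -0.35 and 0.80, and its summed signal over 23 genes was 8190 and 6781 on the GFP arrays and 3100 and 5164 on the Gyc76C arrays. Of the 19, 4 fell, 0 rose and 15 did not pass, where 13.3% of all tested probe sets fell. A tubulin gene of the male germ line, betaTub85D, fell 2.59-fold (limma adjusted p = 0.012). Of the 19 genes, 17 had a log2 fold change below 0. The exceptions were mia and fzo, at 0.66 and 0.28, and neither passed. The germ line genes aly, comr, twe and vas were under the filter. The part of testis RNA in the paralog values was not tested.

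Sem1, a small lid subunit that the symbol rule does not take in, fell 1.92-fold, from 5711 and 6525 to 3129 and 3234 (limma adjusted p = 0.00468). It belonged to 1 of 6 lists of genes that act with the proteasome, which together held 36 tested genes. Of these 12 fell, 0 rose and 24 did not pass, against the 13.3% and 11.3% of all tested probe sets that fell and rose, and their median log2 fold change was -0.37. Without Gyc76C replicate 1, 3 of the 36 fell, against 5.59% of all probe sets. Without Gyc76C replicate 2, 5 fell, against 10.9%, and without a mean trend 5, against 5.59%. With centred arrays 7 fell, against 8.80%.

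Sem1 was counted in the list of assembly factors and activators. Of its 9 genes 4 fell (median log2 fold change -0.56), or 3 of 8 without Sem1 (median -0.51), against 13.3% of all tested probe sets. Pomp is the maturation factor that is enclosed in the core as the beta rings close. It was measured at 2516 and 2783 on the GFP arrays and at 1192 and 1176 on the Gyc76C arrays. It fell 2.23-fold (log2 fold change -1.16, SE 0.13, limma adjusted p = 0.00214), a lower value than that of any canonical subunit gene, and it kept the call in 12 of 12 alternative settings, as Sem1 did. PSMG1, whose mammalian counterpart is a chaperone of alpha ring assembly, and CG9588 fell by 0.60 and 0.56 on the log2 scale (limma adjusted p = 0.028 and 0.0375). PSMG1 kept the call in 8 of 12 alternative settings and CG9588 in 6 of 12, and both lost it with centred arrays. REG, which encodes the alternative 11S activator cap, was nearly level, at 2115 and 2297 against 2234 and 2000 (log2 fold change -0.06, 95% interval -0.38 to 0.26). PI31, a proteasome regulator, had -0.36 and did not pass.

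Among ubiquitin genes 1 of 4 fell, against 13.3% of all tested probe sets. This was Ubi-p5E, a polyubiquitin gene, which was at 7707 and 10933 in GFP larvae and at 3381 and 3717 in Gyc76C larvae (2.59-fold lower, SE of the log2 fold change 0.19, limma adjusted p = 0.00436), and its call held in 12 of 12 alternative settings. The other polyubiquitin gene, Ubi-p63E, had -0.23 (95% interval -0.58 to 0.13). RpS27A and RpL40, in which ubiquitin is fused to a ribosomal protein, had -0.27 and -0.01, and neither passed.

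Of 5 shuttle factor and deubiquitinase genes 2 fell, against 13.3% of all tested probe sets. Uch-L5, a deubiquitinase that docks on Rpn13, was at 1228 and 1329 on the GFP arrays and at 632.4 and 712.5 on the Gyc76C arrays (log2 fold change -0.93, SE 0.14, limma adjusted p = 0.00619). The shuttle factor gene rngo fell by 0.70 on the log2 scale (limma adjusted p = 0.0108). Uch-L5 kept the call in 11 of 12 alternative settings and rngo in 9 of 12. Rad23, another shuttle factor, and Usp14, the second deubiquitinase of the proteasome, both had -0.23 and did not pass.

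The p97 unfoldase gene TER94 and the gene of its cofactor p47 fell by 0.53 and 0.49 on the log2 scale (limma adjusted p = 0.0448 and 0.0414). TER94 kept the call in 5 of 12 alternative settings and p47 in 7 of 12, and both lost it with centred arrays. Npl4 had 0.04, and 2 of 5 genes of this list fell, against 13.3% of all tested probe sets. Among 4 regulators 1 fell, again against 13.3%. This was maf-S, at 2434 and 2445 on the GFP arrays and 1494 and 1666 on the Gyc76C arrays (log2 fold change -0.63, SE 0.13, limma adjusted p = 0.0166). Its product pairs with the transcription factor Cnc, a relative of the mammalian Nrf proteins that drive proteasome genes. The cnc gene itself had -0.22 and did not pass (95% interval -0.53 to 0.09, limma adjusted p = 0.247), and neither did Keap1, whose product restrains Cnc, at -0.21.

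The COP9 signalosome, which removes Nedd8 from cullins, is built from relatives of the lid subunits. Of its 9 tested genes 2 fell, 0 rose and 7 did not pass, where 13.3% of all tested probe sets fell. The median log2 fold change was -0.23. The dim gene CSN1a was higher on both Gyc76C arrays, with a mean of 67.4 ± 1.60 against 28.1 ± 16.8 (SD, n = 2 each), and did not pass (log2 fold change 1.40, 95% interval -0.22 to 3.02, limma adjusted p = 0.174). CSN7 was at 1541 and 1597 on the GFP arrays and at 828.1 and 854.5 on the Gyc76C arrays (log2 fold change -0.90, limma adjusted p = 0.00494), and CSN4 fell by 0.53 (limma adjusted p = 0.0276). CSN7 kept the call in 11 of 12 alternative settings and CSN4 in 8 of 12. CSN5, the counterpart of the lid enzyme Rpn11, had 0.10 (95% interval -0.21 to 0.41), whereas Rpn11 itself fell; the difference between these genes was not tested.

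**Figure D5:**
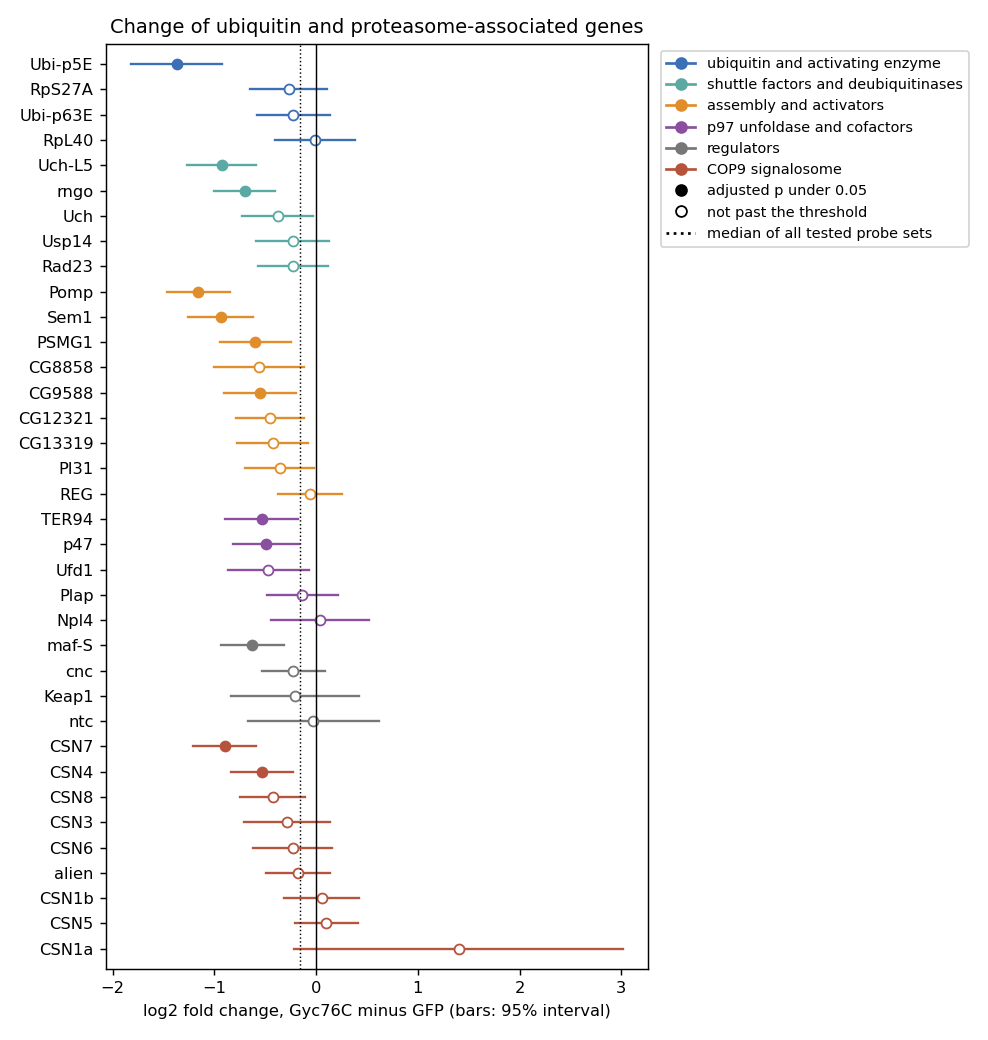
Log2 fold change (Gyc76C minus GFP) with its unadjusted 95% interval for 36 tested genes of 6 lists related to the proteasome; filled points passed an adjusted p of 0.05 and the dotted line is the median of all tested probe sets. Ubi-p5E and Pomp lie lowest, at -1.37 and -1.16, and REG, RpL40, ntc, Npl4, CSN1b and CSN5 lie near 0. CSN1a lies highest, at 1.40 with a wide interval, and passed the filter only through its Gyc76C signals.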

How the data were processed

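The authors deposited probe set intensity values in linear units. Per the submitters' processing notes they come from MAS5, with no version stated, and neither scaling target nor detection calls nor annotation build was at hand. The trimmed mean (2% off each end, controls left out) was 491 to 494 on every array.

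After removal of 183 control probe sets from 18952, the 11261 with a mean of at least 46.3 (the 40th percentile) over the 4 arrays were analysed as log2 signals, with no pseudocount. Genotypes were compared with limma 3.58.1 (R 4.3.3; lmFit, eBayes with a mean trend; 2 residual and 4.64 prior degrees of freedom), two-sided, with Benjamini-Hochberg adjustment over all probe sets tested and a threshold of 0.05. The fit was tested on simulated data. Folds are ratios of geometric means; SDs are of linear signals. Where both Gyc76C signals are under 46.3, the fold uses that level.

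Lists use each gene's brightest probe set; CG3812 was dropped because the RefSeq table names it Agpat1, and Uba1 and Ubqn were not analysed here. All members may be named. Other genes are named where past the threshold, and otherwise as contrasts chosen after their values were seen. Members and lists were chosen with earlier results of these data known. The number of arrays limits the precision. Alternatives covered scaling, filter, a floor, the variance prior, a replicate block and leaving out each array; counts by subcomplex were added after the data were seen.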

Additional observations from a re-analysis of the deposited data

How the results depend on the processing

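The number of arrays, the variance model and the scaling each moved the counts, and the paralogs near a signal of 46.3 are limited by signal over background as well. Over all probe sets 2771 passed the threshold, 1241 without a mean trend, and 1204 to 3350 when 1 array was left out. Of the proteasome genes 15 fell in the fit reported, 7 with arrays centred on their median, 1 without a mean trend and 0 to 22 with 1 array left out, and 0 rose in any setting, also at an unadjusted p under 0.05. By group, the ranges with 1 array left out were 0 to 22 canonical, 0 to 9 core, 0 to 7 base, 0 to 6 lid and 0 to 2 paralog genes, and 3 to 16 genes of the 6 other lists. With centred arrays 6 canonical, 2 core, 0 base and 1 paralog gene and 7 genes of the other lists fell. Without a mean trend 0 canonical, 0 core, 0 base, 0 lid and 1 paralog gene and 5 of the other lists fell. Quantile normalization gave 10 core, 4 base and 0 paralog genes, against 10.5% of all probe sets that fell. No filter gave 1 base and 1 paralog gene, against 6.36%. A filter at the 60th percentile left 1 paralog to test and 0 called, where 19.3% of all probe sets fell. The core median moved from -0.44 to -0.29 with centred arrays, to -0.56 after quantile normalization, and between -0.56 and -0.33 with 1 array left out. The lid median was -0.49 with centred arrays and -0.70 to -0.53 with 1 array left out, and the base median -0.66 to -0.30. Signs turned for Prosbeta3 with centred arrays (0.062), for Rpn12R there and after quantile normalization (0.074 and 0.14), for Prosbeta2R1 after quantile normalization (0.042), and for Prosalpha4T2 after it and with low signals raised to 46.3 (0.031 and 0.10). With 1 array left out the range was -0.64 to 0.15 for Prosalpha4T1, -0.81 to 0.31 for Prosalpha4T2, -0.60 to 0.23 for Prosbeta2R1 and -0.32 to 0.15 for Rpn12R. The cause of these differences was not tested. The labels give replicate numbers but no shared origin, and the deviations of same-numbered arrays correlated at r = 0.04 over probe sets. With the replicate number as a block 13 canonical genes and 1 paralog fell, and 3101 probe sets passed.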
